A study of Mus musculus with 64 samples.

Results

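CD4 was measured as 1 of 11 surface proteins on single colon immune cells of mice with T cell transfer colitis. The values below come from the CD4 antibody row, taken by its name, of all 9 surface protein libraries. The series holds 64 samples, and the other 55 were not analysed here. The protein is the product of Cd4 (ENSMUSG00000023274.14), which lies on the minus strand of chromosome 6 from 124864692 to 124888221 in the GENCODE annotation of GRCm38.

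CD4 is a membrane glycoprotein of helper T cells. It binds MHC class II beside the T cell receptor and brings the kinase Lck to the receptor complex. In mice CD4 is also known on lymphoid tissue inducer cells, which are innate lymphocytes without CD3, on some dendritic cells and on some long-lived macrophages of the gut. An antibody tag can also be counted on a cell that lacks the protein, from free antibody or from a neighbouring cell in the same droplet.

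The hosts were SCID mice, which lack T and B lymphocytes of their own, and the labels of the paired RNA libraries give the strain as BALB/c SCID. All 9 libraries, week 0 included, carry the label of a CD45RBhi transfer, a naive T cell fraction that drives colitis in such hosts. There was 1 untreated library for each of weeks 0 to 7 and a further week 7 library whose mice received anti-IL-12p40 from day 10; p40 is a chain that the cytokines IL-12 and IL-23 have in common. Each library pooled colons of 3 animals and was sorted as EpCAM-/CD45+ cells. A library is therefore the unit of every test, no group had replicate libraries, and p-values measure the spread between weeks.

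Cells were placed by the other 10 antibodies, so that CD4 entered no gate. T cells were CD3+CD90.2+ without the myeloid proteins CD11b, CD11c, CD64 and Ly-6G. CD3-CD90.2+ cells, the gate meant for innate lymphoid cells, were without those proteins too and lay below the CD3 threshold. How many T cells with low CD3 fell in this gate was not tested. The other phenotypes were CD3- as well. CD64+ cells (CD64 is an Fc receptor of macrophages and monocytes) were Ly-6G-, CD11c+ cells (CD11c is an integrin of dendritic cells) were CD64- and Ly-6G-, and Ly-6G+ cells were also CD11b+, as neutrophils are. The defining antibodies differ between phenotypes because of the gates themselves. The median CD3 count per library was 35 to 71 on T cells and 1 to 14 on CD3-CD90.2+ cells. It was 4 to 19 on CD64+, 1 to 9 on CD11c+ and 3 to 32 on Ly-6G+ cells. The median Ly-6G count was 242 to 1268 on Ly-6G+ cells and 1 to 25 on the rest. The 130442 cells kept included 56832 T, 22313 CD3-CD90.2+, 18652 CD64+, 15114 CD11c+ and 3865 Ly-6G+ cells, and 13666 cells fell in none. Median antibody counts per cell were 576.5 to 1566 per library, and library pairs shared 30 to 110 cell barcodes.

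Levels are given as raw counts per cell and as centred log ratios (CLR): ln(count + 1) of an antibody less the average of that quantity across all 11 antibodies of the cell. On T cells the median CD4 count was 169.5, 137, 174, 151, 267, 217 and 274 from week 1 to week 7 in turn. Week 0 held 9 T cells, 0.0538% of its cells, and was left out for T cells. These 9 cells had a median CD4 count of 2, and 1 of them lay above the CD4 threshold of 0.685 CLR that separates CD4+ from CD4- cells. T cells made up 4.17% of cells at week 1, 33.0% at week 2 and 85.8% at week 7.

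**Figure D1:**
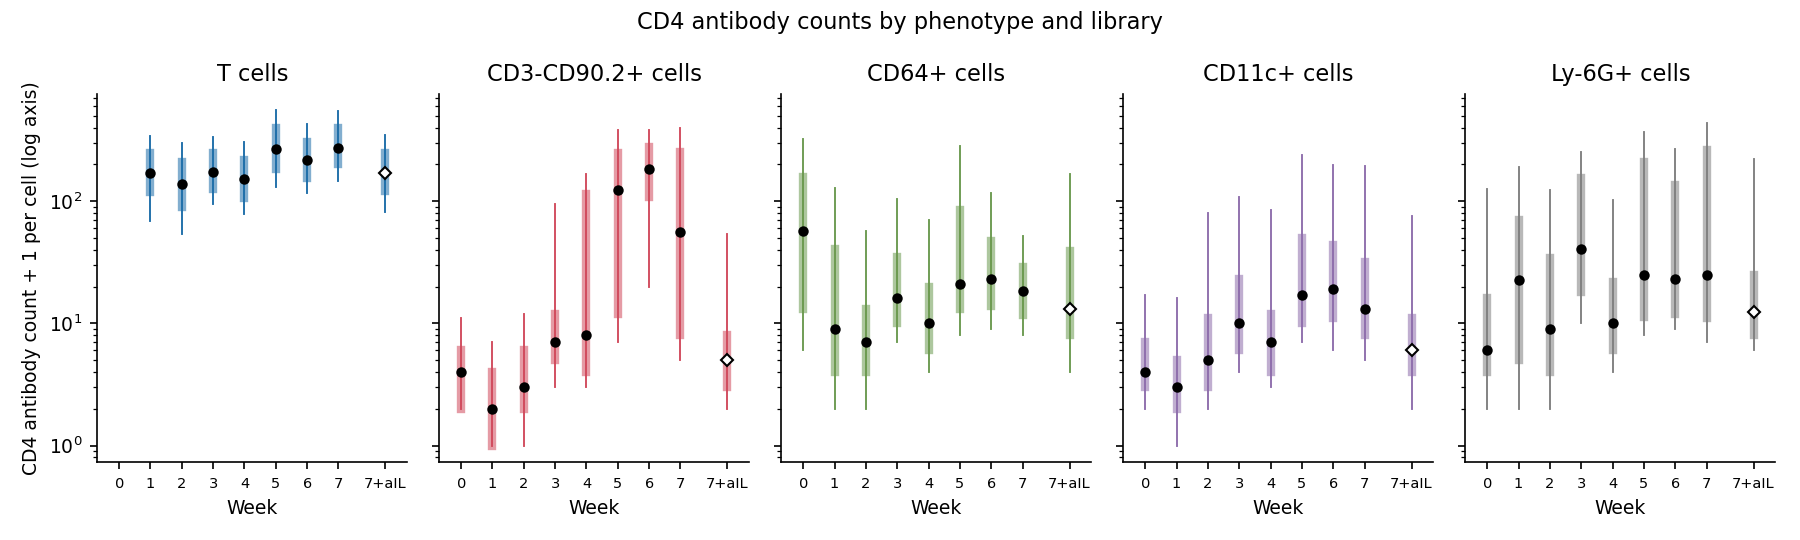
CD4 antibody counts plus 1 per cell (log axis) by week for the 5 phenotypes. Points are medians, thick bars the middle quartiles and thin lines the 10th to 90th percentiles of cells, the open diamond at 7+aIL is the anti-IL-12p40 library, and phenotypes with fewer than 50 cells in a library are not drawn. T cells stayed between medians of 137 and 274, CD3-CD90.2+ cells went from 3 to 182 between weeks 0 and 6, and CD64+ cells were highest at week 0, at 56.

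CD4 was higher on T cells than on every other phenotype in each of the 7 libraries that could be compared. The median CLR of T cells exceeded that of Ly-6G+ cells by 3.06 (SD 0.322), that of CD64+ cells by 3.06 (SD 0.337), that of CD11c+ cells by 2.87 (SD 0.448) and that of CD3-CD90.2+ cells by 2.06 (SD 1.32). Each of these 4 differences had an adjusted p of 0.0252 in a two-sided exact sign-flip test over 7 libraries, whose smallest p is 0.015625. Over the 10 phenotype pairs and the 5 antibodies that define no phenotype, 66% of differences passed, so passing is common in this comparison. The gap to CD3-CD90.2+ cells was uneven: it was 3.75 at week 1, 2.73 at week 3, 0.568 at week 5, 0.225 at week 6, and 1.56 again at week 7.

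In order of mean CLR over the untreated libraries, T cells stood at 2.26 (SD 0.318, n = 7), CD3-CD90.2+ cells at 0.042 (SD 1.32, n = 8), CD11c+ cells at -0.674 (SD 0.363, n = 8), CD64+ cells at -0.682 (SD 0.386, n = 8) and Ly-6G+ cells at -0.897 (SD 0.373, n = 8). CD11c+ and CD64+ cells, neighbours in that order, did not differ beyond their spread (mean difference CD64+ minus CD11c+ -0.0078, SD 0.556, exact sign-flip adjusted p = 0.969, n = 8). CD3-CD90.2+ cells did not pass against CD11c+ cells (0.716, SD 1.00, adjusted p = 0.113) or CD64+ cells (0.724, SD 1.30, adjusted p = 0.205) in the same exact test. CD3-CD90.2+ minus Ly-6G+ cells gave 0.939 (SD 1.07, exact adjusted p = 0.0574), and CD64+ minus Ly-6G+ cells gave 0.215 (SD 0.628, exact adjusted p = 0.513). CD11c+ cells were above Ly-6G+ cells by 0.223 (SD 0.223, higher in 7 of 8 libraries, exact adjusted p = 0.0473), but without centring, on ln counts, the sign turned (difference -0.751, exact adjusted p = 0.0340). The CLR difference did not pass when any library but week 1 was left out (0.190 to 0.243). Ly-6G+ cells carried median totals of 1551 to 4705 antibody counts and CD11c+ cells 459 to 1009; the part of this gap in the change of sign was not tested.

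**Figure D2:**
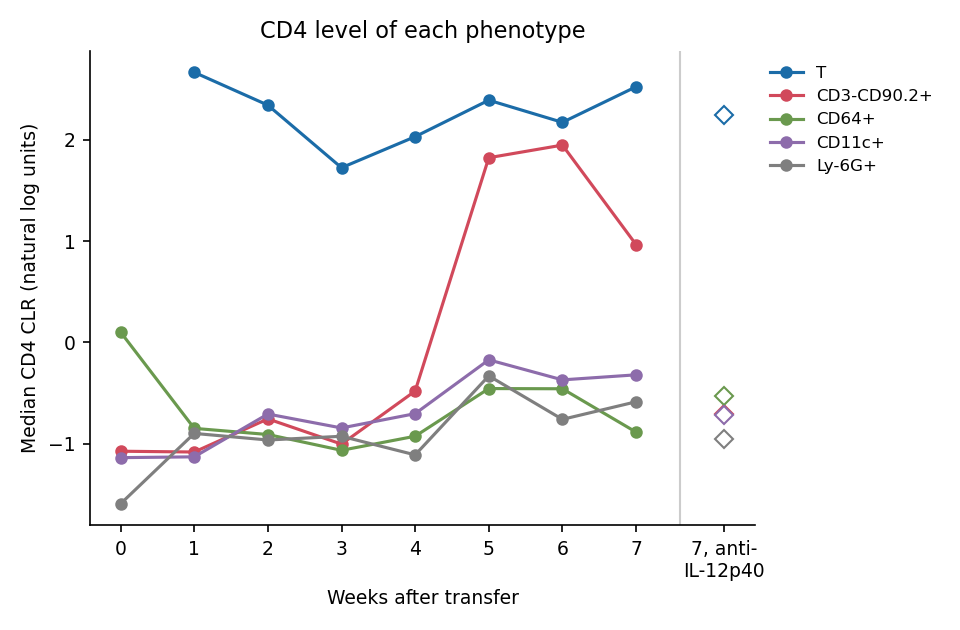
Median CD4 CLR (natural log units) of each phenotype against weeks after transfer, 1 library per point, with open diamonds for the anti-IL-12p40 library at the right. T cells lay above the other phenotypes at every week from 1, and CD3-CD90.2+ cells rose from -0.481 at week 4 to 1.82 at week 5.

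Most T cells carried CD4, but not all did at the early weeks. T cells below the CD4 threshold made up 7.98% at week 1 (42 of 526 cells, exact Clopper-Pearson 95% interval 5.82% to 10.6%), 3.74% at week 2 (3.30% to 4.21%), 0.799% at week 3 and 0.0885% to 0.388% at weeks 4 to 7. In the anti-IL-12p40 library they made up 4.61% (383 of 8309 cells, 4.17% to 5.08%), against 0.147% (0.0822% to 0.242%) in the untreated week 7 library. The intervals of those week 7 libraries do not overlap, but they cover counting error only.

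These CD4- T cells differed between weeks. At week 1 they were shallow, with a median total of 265.5 counts, 1 for CD4 and 4 for CD3. At week 2 they had median counts of 2 for CD4, 20 for CD3 and 9 for KLRG1, a lectin-like receptor of effector lymphocytes, and the CD4+ T cells of that library had 142, 38 and 1. In the anti-IL-12p40 library they had 4 for CD4, 35 for CD3 and 5 for KLRG1, against 175, 56 and 2. At week 3 and week 4, in contrast, cells below the threshold still had median CD4 counts of 59 and 41. With every cell thinned to 150 counts and placed anew, CD4+ cells were 95.3% of T cells at week 2, 99.7% at week 7 and 91.8% with anti-IL-12p40 (96.3%, 99.9% and 95.4% unthinned). At week 1 the thinned share was 60.8% of 799 cells against 92.0% of 526, so the share of that week changed with depth.

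Within T cells, CD4 was compared between subsets split by KLRG1 and by CD103, the integrin alpha E that binds E-cadherin on epithelium. The median CD4 count of KLRG1+ and KLRG1- T cells was 164 and 170.5 at week 1, 131 and 143 at week 2, 158 and 183 at week 3, 127 and 156 at week 4, 219.5 and 272 at week 5, 177 and 225 at week 6, and 237 and 282 at week 7. KLRG1+ cells were lower in 7 of 7 libraries, and the median CLR differed by -0.238 (SD 0.0423, exact sign-flip adjusted p = 0.0329, n = 7). In this comparison 95% of the antibody differences passed. The CLR of a KLRG1+ cell subtracts a mean that holds its own KLRG1 count, which had a median of 17 to 30 on KLRG1+ and 0 to 3 on KLRG1- cells. When the mean left out CD4 and KLRG1, an alternative chosen after seeing the data, the difference was -0.016 (exact adjusted p = 0.329). On ln counts it was -0.157 (exact adjusted p = 0.104), and KLRG1+ cells had fewer total counts in 6 of 7 libraries, such as 1141 against 1356 at week 7.

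The CD103 split also depended on the scale, and unlike the KLRG1 split its mean difference turned direction. CD103+ and CD103- T cells had median CD4 counts of 148 and 137 at week 2, 201 and 172 at week 3, 153 and 151 at week 4, 270 and 266 at week 5, 234 and 215 at week 6, and 293 and 268 at week 7. The count was higher on CD103+ cells in 6 of 6 libraries. Their total counts were higher in each of these libraries as well, such as 1266 against 1123 at week 5 and 1466 against 1264 at week 7. The part of the total count in the CD4 count differences was not tested. The CLR was nevertheless lower on CD103+ cells, by a mean of -0.137 (SD 0.0786, exact sign-flip adjusted p = 0.0329, n = 6). With CD4 and CD103 left out of the centre it was higher, by 0.078 (exact adjusted p = 0.0625), and on ln counts by 0.072 (exact adjusted p = 0.104). With CD4 and the splitting antibody left out of the centre, the CD103 difference was above 0 in 6 of 6 libraries and the KLRG1 difference in 2 of 7. The smallest unadjusted sign-flip p is 0.03125 over 6 libraries and 0.015625 over 7. After adjustment neither subset difference in CD4 passed on a scale that left the splitting antibody out of the centre. With so few libraries this does not show that the differences are absent.

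CD3-CD90.2+ cells were low in CD4 early and mostly high late. Their median CD4 count was 3, 1, 2, 6, 7, 123, 182 and 55 from week 0 to week 7 in turn. The share above the CD4 threshold went from 7.16% at week 0 (exact Clopper-Pearson interval 6.58% to 7.78%) through 8.28% at week 2 and 36.7% at week 4 to 86.8% at week 6 and 52.8% at week 7. Thinned to 150 counts per cell, these shares were 6.47%, 15.4%, 54.4%, 92.8% and 83.7% for weeks 0, 2, 4, 6 and 7. Thinning also changed who was in the gate, which held 486 cells at week 7 after it and 229 before. The phenotype held 7250, 346, 1409 and 229 cells in weeks 0, 4, 6 and 7. Its CD4+ cells numbered 519, 416, 281, 141, 127, 416, 1223 and 121 from week 0 to week 7 in turn, so both the CD4+ number and the share were highest at week 6.

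The CD4+ cells of this phenotype were not alike across weeks. At week 0, with 9 T cells in the library, the 519 CD4+ cells had a median CD4 count of 284. Their CD3 count was 2, as on the CD4- cells, and their CD90.2 count was 1482 against 893. CD127, the interleukin-7 receptor alpha chain of innate lymphocytes and T cells, had 22 against 13, and KLRG1 had 1 against 3. The total count was 2003 against 1105, a ratio of 1.81, and the ratios for CD90.2 and CD127 were 1.66 and 1.64. Ratios are of median counts plus 1. The total count holds CD90.2 itself and also CD4, by which the cells were split. Among the other antibodies the ratio was 1 for CD3, CD11c and Ly-6C, 0.8 for CD103, 1.125 for CD11b and 1.25 for CD64. At week 1 the CD3 count of the CD4+ cells was 1, as on the CD4- cells, while T cells had 43. From week 3 on, CD3 was higher on the CD4+ cells: 15 against 7 at week 3, 12 against 3 at week 4, 10 against 4 at week 5, 15 against 5 at week 6 and 12 against 4 at week 7.

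These CD3 counts were still below those of T cells, at 19.2% to 42.9% of the T cell median at weeks 3 to 7, and the gate itself holds CD3 low. The share of CD4+ CD3-CD90.2+ cells whose CD3 count reached the 10th percentile of T cells was 0.240%, 8.90%, 39.3% and 13.2% for weeks 1, 2, 6 and 7, against 0% to 4.84% of the CD4- cells in the same 4 weeks. CD103 also separated the late CD4+ cells, with median counts of 26 against 8 at week 5 and 25 against 5 at week 7, whereas at week 0 it was 3 against 4. How many of the late CD4+ cells were T cells whose CD3 lay under the gate was not tested.

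**Figure D3:**
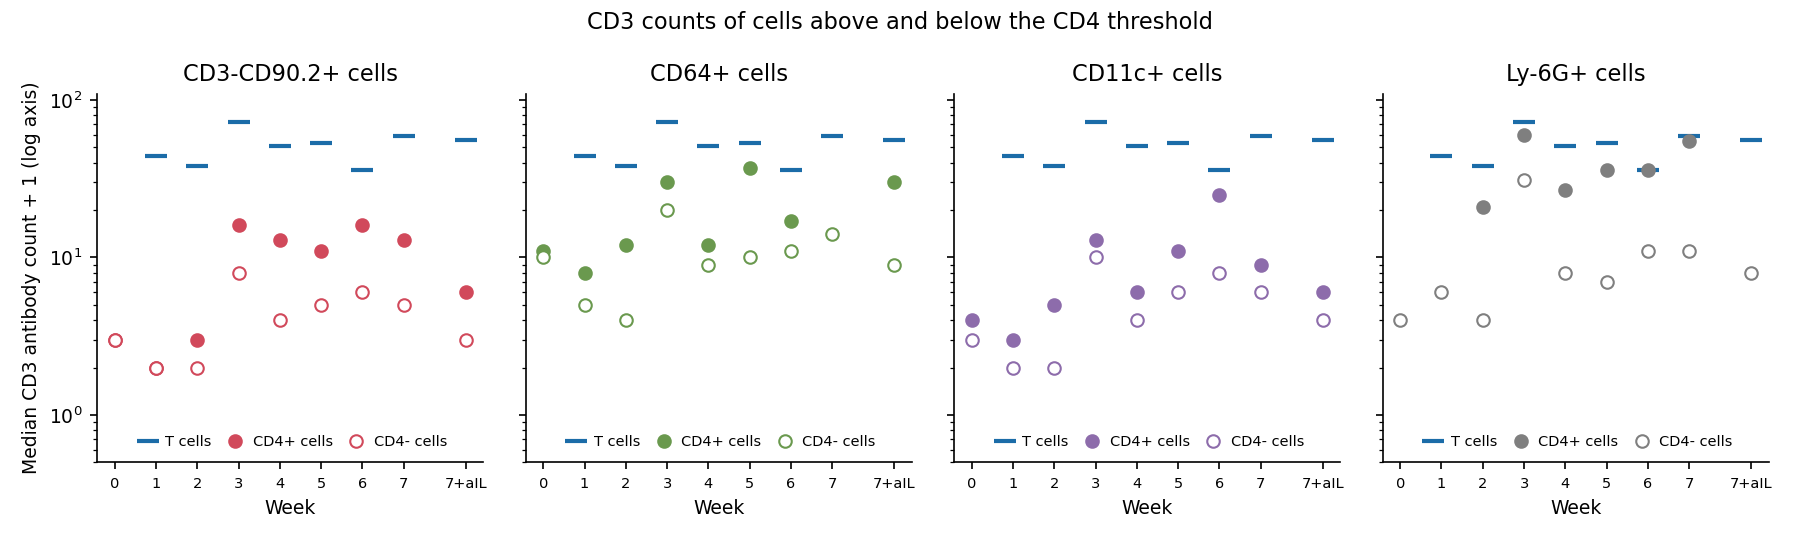
Median CD3 count plus 1 (log axis) of CD4+ cells (filled) and CD4- cells (open) in each CD3- phenotype by week, with the T cell median of the same library as a dash and parts with fewer than 20 cells left out. CD4+ and CD4- cells share a CD3 count of 2 among CD3-CD90.2+ cells at week 0 and lie 54 against 10 among Ly-6G+ cells at week 7.

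The raw CD4 count and the CLR of CD64+ cells were highest at week 0. Their median CD4 count was 56, 8, 6, 15, 9, 20, 22 and 17.5 from week 0 to week 7 in turn. At week 0 their median CLR was 0.101, against -1.14 on CD11c+ and -1.59 on Ly-6G+ cells of the same library. From week 1 on it was -1.07 to -0.457 and within 0.566 of the CD11c+ level. With all CD64+ cells thinned to 150 counts, week 0 was not highest: the CD4+ share was 31.0% at week 0, 32.1% at week 5 and 37.2% at week 6, and the thinned median CD4 count was 3, 3 and 4.

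The week 0 signal was found on cells without CD90.2 and with like CD3 counts. Among the 1602 CD64+ cells of week 0 without CD90.2, the CD4 count had a median of 33 and a 90th percentile of 213.8, and a 2-component fit put 50.8% of cells around 108 counts and the others around 8.32 (Ashman's D, how far apart 2 components lie for their width, was 3.06). Of these cells 32.6% lay above the CD4 threshold (exact Clopper-Pearson interval 30.3% to 34.9%; 34.0% after thinning). The threshold cuts through a continuous range here, since 17.6% of all week 0 CD64+ cells lay within 0.25 CLR of it. The CD4+ and CD4- cells without CD90.2 had median counts of 9 and 7 for CD3 and of 67.5 and 73 for CD90.2.

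The CD4+ share of CD64+ cells without CD90.2 was 12.4%, 5.81%, 2.90%, 6.95%, 14.4%, 8.13% and 4.70% from week 1 to week 7 in turn. After thinning it was 15.8%, 9.34%, 6.78%, 24.0% and 4.93% for weeks 1, 2, 3, 5 and 7, so week 0 was highest on both. At week 7 this share rested on 149 cells and its interval ran from 1.91% to 9.44%. There were 1602 such cells at week 0, 1413 at week 1 and 4252 at week 2, of which 522, 175 and 247 were CD4+.

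The CD4+ CD64+ cells without CD90.2 also differed in myeloid proteins. CD11c was higher on them than on the CD4- cells in 7 of 7 untreated libraries with at least 20 cells of each kind, with median counts of 110 against 80.5 at week 0, 71 against 28 at week 1, 126 against 39 at week 2, 333 against 98 at week 3, 298 against 107 at week 4, 99 against 37 at week 5 and 159 against 87 at week 6. Ly-6C, which is high on newly arrived monocytes, was lower on them in 6 of 7, as at week 2 (206 against 614) and week 4 (170.5 against 371), and at week 0 it was 186.5 against 183. CD11b was lower in 6 of 7 as well, for example 306 against 465 at week 0. The total count of the CD4+ cells was lower in the same 6 libraries as CD11b, such as 1061.5 against 1202 at week 0, 786 against 1136 at week 2 and 783 against 1388 at week 6, and its part in these raw count differences was not tested. CD3 was 4 against 3 at week 2 and 9 against 8 at week 4, but 25 against 9 at week 5, when CD90.2 was 132 against 48. These values describe cells split by a threshold chosen after seeing the data and carry no test.

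**Figure D4:**
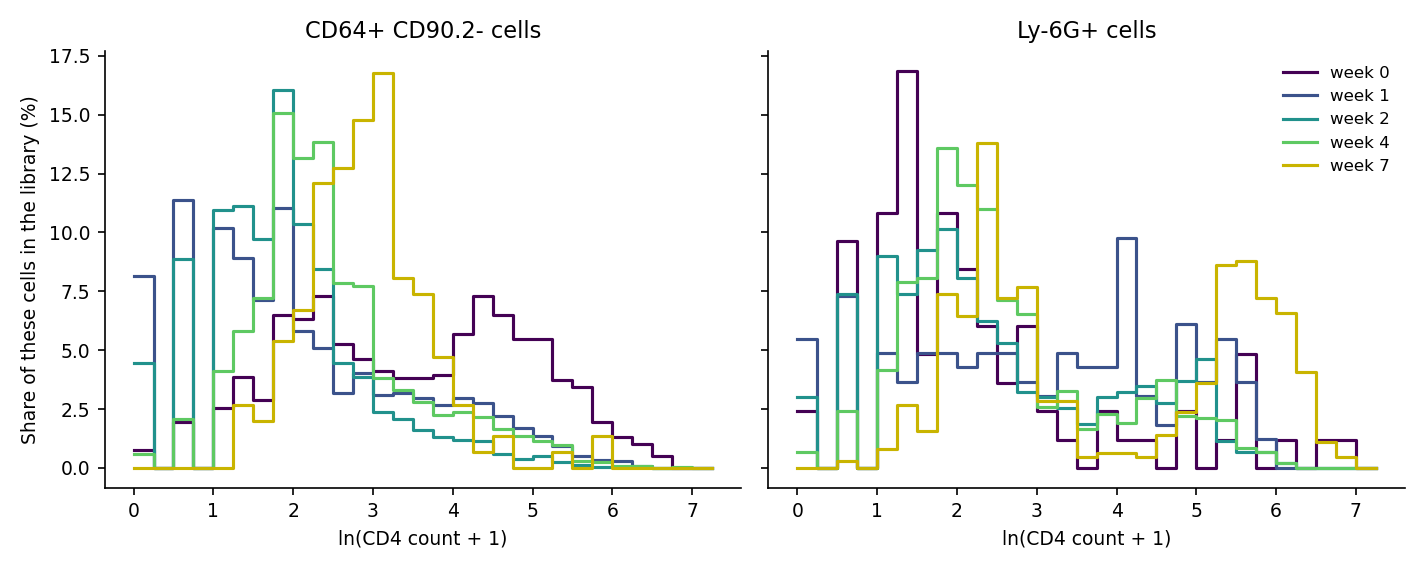
Share of cells (%) by ln(CD4 count + 1) in bins of 0.25 for CD64+ cells without CD90.2 and for Ly-6G+ cells at weeks 0, 1, 2, 4 and 7. In separate 2-component fits, the upper component of the CD64+ cells lies around 108 counts at week 0 and holds 50.8% of them. At weeks 1, 2, 4 and 7 it lies around 45.2, 48.9, 66.1 and 286 counts and holds 29.5%, 9.31%, 17.0% and 1.99%. The upper component of the Ly-6G+ cells lies around 288 counts at week 7.

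CD64+ cells that carried CD90.2 were higher in CD4 during colitis. Their median CD4 count was 82, 24, 51, 170, 120, 257 and 197 from week 0 to week 6 in turn, and their median CD3 count was 11, 6, 10, 55, 39, 47 and 27.5 in the same weeks. CD64+ cells without CD90.2 had a CD3 count of 3 to 18 in those weeks. At week 5 the CD4+ share was 80.3% of the CD90.2+ cells and 14.4% of the CD90.2- cells.

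CD11c+ cells were low in CD4 at all weeks, with a minority of high cells. Their median CD4 count was 3, 2, 4, 9, 6, 16, 18 and 12 from week 0 to week 7 in turn. The CD4+ share was 5.23%, 15.5%, 25.4% and 18.7% for weeks 0, 2, 5 and 7, and 5.05%, 16.2%, 28.0% and 24.0% after thinning. At week 0 the 255 CD4+ cells had median counts of 289 for CD4 and 3 for CD3, 14 for CD103 against 113 on CD4- cells, 135 for CD11c against 207, and 16 for CD127 against 3. Their CD90.2 count was 208 against 57, and their total count 1564 against 842.5. They were thus poor in CD103 and CD11c and richer in CD127 and CD90.2 than the other CD11c+ cells. At week 6 the 177 CD4+ cells had 24 for CD3 against 7 and 843 for CD90.2 against 76, with total counts of 2069 against 868.5.

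Ly-6G+ cells served as the phenotype that should lack CD4. Their median CD4 count was 5, 21.5, 8, 40, 9, 24, 22 and 24 from week 0 to week 7 in turn. The upper part moved more than the median: the 75th percentile was 15 at week 0, 21 at week 4 and 262 at week 7, when the T cell median was 274. CD4+ Ly-6G+ cells numbered 4 of 83 at week 0 and 237 of 637 at week 7 (37.2%; 31.5% after thinning).

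The CD4+ Ly-6G+ cells are high in CD4 by their selection. At weeks 2 to 7 they had CD4 counts of 98.1% to 125% of the T cell median and CD3 counts of 52% to 100% of it. CD4+ cells of the other phenotypes were selected alike. Their CD4 was 60.6% to 96.6% of the T cell median on CD3-CD90.2+, 69.3% to 102% on CD64+ and 67.5% to 107% on CD11c+ cells. Their CD3 was 2.33% to 42.9%, 16.3% to 69.2% and 4.65% to 68.6% of it in the same order. The median CD3 count of CD4+ and CD4- Ly-6G+ cells was 20 and 3 at week 2, 59 and 30 at week 3, 26 and 7 at week 4, 35 and 6 at week 5, 35 and 10 at week 6 and 54 and 10 at week 7. Their CD90.2 counts at week 7 were 742 and 32, and their Ly-6G counts 1390 and 1192.5, so both kinds carried the neutrophil protein. Their total counts at week 7 were 4805 and 3146.5. CD4, CD3 and CD90.2 were thus high on the same Ly-6G+ cells, and how many of them shared a droplet with a T cell was not tested.

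The CD4- Ly-6G+ cells, which are low in CD4 by their selection, describe what was counted under the threshold, with a median CD4 count of 5 at week 0, 15 at week 1, 6 at week 2, 30 at week 3, 8 at week 4, 12.5 at week 5, 16 at week 6, 11 at week 7 and 10 with anti-IL-12p40. Week 3 was highest for CD4, for CD3 (30) and for the total count of these cells (4767). Against all Ly-6G+ cells, CD4+ ones included, whose medians were 5 to 40, T cells were at 137 to 274 counts from week 1 on, and the CD64+ cells of week 0 were at 56 against 5.

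The CD4 count on Ly-6G+ cells was compared with the share of T cells in the library, since free antibody and shared droplets could both grow with it. Over 8 untreated libraries, rho was 0.778 (exact permutation p = 0.0301, adjusted p = 0.191) and Pearson's r was 0.570 (exact permutation p = 0.141, adjusted p = 0.259). Without weeks 0 and 1, rho was 0.638 and r 0.618 (exact permutation p = 0.194 and 0.197, n = 6). None of the 11 antibodies passed (0%), and 2 had an unadjusted exact p below 0.05. With CD4+ Ly-6G+ cells left out, a choice made after seeing the data, rho was 0.429 (exact permutation p = 0.299, adjusted p = 0.411).

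Across weeks, no trend in level passed by Spearman's rho for any of the 11 antibodies on the 5 phenotypes (0% of 55 trends by the exact permutation test, 10 with an unadjusted p below 0.05). By Pearson's r 3 of the 55 passed, none of them for CD4: CD3 on CD3-CD90.2+ cells, CD3 on Ly-6G+ cells and Ly-6G on Ly-6G+ cells (exact permutation adjusted p = 0.0446 for each). For CD4, CD11c+ cells gave rho = 0.905 (exact permutation p = 0.00456, adjusted p = 0.0996) and r = 0.905 (exact p = 0.00382, adjusted p = 0.0525), with r = 0.870 without weeks 0 and 7. CD3-CD90.2+ cells gave rho = 0.881 (exact p = 0.00724, adjusted p = 0.0996) and r = 0.833 (exact p = 0.0144), with r = 0.882 without weeks 0 and 7. Ly-6G+ cells gave rho = 0.714 (exact p = 0.0576, adjusted p = 0.244) and r = 0.740 (exact p = 0.0309), with r = 0.477 without those weeks. CD64+ cells gave rho = -0.119 (exact p = 0.793) and r = -0.261 (exact p = 0.546), and r = 0.715 without weeks 0 and 7, so that the sign rested on those libraries. T cells gave rho = -0.036 (exact p = 0.963) and r = -0.024 (exact p = 0.957) over 7 libraries. On T cells the direction depended on the scale: rho was 0.786 on ln counts (exact permutation p = 0.0480, adjusted p = 0.290) and 0.690 thinned (exact permutation p = 0.0694, adjusted p = 0.326).

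The level above that of Ly-6G+ cells in the same library was tested next. Over 40 such trends, 17.5% passed by the exact permutation test of rho, and none of the 4 for CD4 did by rho or r. CD3-CD90.2+ cells had the highest, with rho = 0.762 (exact p = 0.0368, adjusted p = 0.134) and r = 0.766 (exact p = 0.0312), and r = 0.915 without weeks 0 and 7. CD11c+ cells, whose own level had rho = 0.905, had rho = 0.071 after the Ly-6G+ level was subtracted (exact p = 0.882). Their r was 0.237, and 0.708 without weeks 0 and 7 (exact p = 0.106, n = 6), so the size of this trend rested on those libraries. CD64+ cells had rho = -0.429 (exact p = 0.299) and T cells rho = -0.500 (exact p = 0.267, n = 7).

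Cells above the 95th percentile of Ly-6G+ cells of their library were called CD4-high. CD64+ cells were CD4-high in 36.9% at week 0 (exact interval 35.2% to 38.6%) and in 13.1%, 6.37% and 2.39% for weeks 1 to 3. The share was 4.05%, 3.47% and 4.68% for weeks 4 to 6, and 0.658% at week 7 (1 of 152 cells). The limit itself moved from 0.560 CLR at week 0 to 1.69 at week 5 while the CD4+ share of Ly-6G+ cells was 4.82% and 35.1%. CD4-high CD11c+ cells had more CD3 (0.324, SD 0.186) and more CD90.2 (0.787, SD 0.557) than CD4-low ones in 7 of 7 libraries, each with an exact sign-flip p of 0.015625 and an adjusted p of 0.104. In CD64+ cells the same differences were 0.253 (SD 0.276) and 0.660 (SD 0.781) over 4 libraries, which cannot reach a p below 0.125. None of the 20 antibody differences of this kind passed (0%), and 6 had an unadjusted p below 0.05. Split at the CD4 threshold instead, a choice made after seeing the data, CD3 was higher by 0.332 on CD64+ and by 0.376 on CD11c+ cells (exact adjusted p = 0.0446 for both, n = 7).

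With anti-IL-12p40, 1 library stood against 1, so no test was made. A difference was called large when it was at least 0.5 CLR and lay outside the untreated weeks 5 to 7. By that rule 23.6% of 55 antibody levels were large, and CD4 was so on 1 phenotype of 5. On CD3-CD90.2+ cells the median CD4 count was 4 with the antibody and 55 without it, and the CLR was -0.711 against 0.965 (0.965 to 1.95 at weeks 5 to 7). The treated library held 2246 of these cells and the untreated one 229, of which 10.9% and 52.8% were CD4+ (27.1% and 83.7% after thinning). The CD4+ cells numbered 244 with the antibody and 121 without it, and the CD4- cells 2002 and 108. On the same phenotype KLRG1 (-0.673 against -1.74 CLR), CD90.2 (4.30 against 3.25) and Ly-6G (-1.15 against -0.412) were also large. These antibodies enter the mean subtracted from CD4.

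On T cells the median CD4 count was 170 with anti-IL-12p40 and 274 without, and the CLR 2.25 against 2.52, a difference of -0.276 that did not meet the size rule. It did so with cells thinned to 150 counts (-0.544) and on ln percent of the cell's counts (-0.859). CD90.2 on T cells had a CLR of 4.37 against 3.53, a difference that was large by the rule and that enters the mean subtracted from CD4. CD64+ cells had 12 against 17.5 counts but a higher CLR (-0.527 against -0.887), CD11c+ cells 5 against 12 and Ly-6G+ cells 11.5 against 24, the last on 54 and 637 cells. On ln counts the CD11c+ and Ly-6G+ differences, at -0.773 and -0.694, met the size rule, and on CLR, at -0.398 and -0.367, they did not.

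The antibodies whose medians moved most like CD4 were CD3 (Pearson's r = 0.902) and CD90.2 (r = 0.585) over the 44 combinations of phenotype and library. Without T cells the values were 0.596 and 0.298 over 36 combinations. These combinations share libraries, antibody mixes and the CLR centre, and CD3 and CD90.2 define the phenotypes, so the values are a description. Within Ly-6G+ cells, the rank correlation of CD4 with CD3 counts over cells of a library was 0.619 to 0.863, and within CD3-CD90.2+ cells it was 0.155 at week 0, 0.114 at week 1 and 0.541 to 0.759 at weeks 3 to 7. Counts of a cell share its total, which raises such values.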

How the data were processed

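The authors deposited raw counts, 1 table per library with antibodies in rows and cells in columns. About 16000 stained cells per sample were loaded, per the labels' protocols. Tools listed in the submitters' processing notes are Seurat 4.1.1 and Cell Ranger 6.0.2, and the build listed is mm10; the rule that kept barcodes was not found in these sources. Barcodes with under 50 counts and the top 1% of each library were left out, keeping 130442 of 131917. No doublet caller was run. Thinning to 150 counts left out 0.119% to 8.62% of a library's cells as too shallow. Thresholds came from a 2-component Gaussian mixture per antibody on 2000 cells per library, on log ratios centred on 10 antibodies (all but CD4); CD4's own threshold used all 11. A phenotype needed 50 cells in a library.

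A first mixture fit, stopped at the default tolerance, had not converged: its Ly-6G threshold of -1.03 (Ashman's D 0.881) called up to 23.9% of a library Ly-6G+. The fit was then run to convergence from 3 starts (threshold 1.21, D 5.35), after CD4 results under the first gate had been seen; both are given in the closing section.

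Tests were exact permutation tests of correlations and exact sign-flip tests of paired differences, two-sided, with Benjamini-Hochberg adjustment at 0.05 over each family. CD4 is the sole member, and the 2 antibodies most like it were named by Pearson's r of medians. The member and lists were chosen with earlier results of these data known. The tests of trends with week and of phenotype pairs were run on simulated cells with known CD4 levels. The gates and the other tests were not run on simulated data. Intervals cover counting error only. Python 3.11.15, numpy 2.4.6, scipy 1.17.1, scikit-learn 1.9.0 and matplotlib 3.10.9 were used.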

Additional observations from a re-analysis of the deposited data

How the results depend on the processing

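Between groups of samples, no paired analysis was possible because each group has 1 library and the labels give no replicate numbers; the paired tests compare cells of the same library. Over 31 results, 298 of 373 alternatives kept direction and side of the threshold, 32 turned direction, 33 passed where the reported value had not and 10 no longer passed; for all of these the cause was not tested. Depth limits counts near the floor, and 1 library per week leaves mouse, week and library inseparable. T cells stayed above the other 4 phenotypes under every alternative; with the mixture stopped at its default tolerance (chosen after seeing the data) the differences from CD3-CD90.2+, CD64+ and CD11c+ cells were 2.28, 2.91 and 2.85 with an exact sign-flip adjusted p of 0.0558.

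The week trend on T cells turned positive with thresholds per library (rho 0.310), thinning to 150 counts (0.690), ln counts (0.786), ln percent (0.357) and means over cells (0.179). That on CD64+ cells turned positive with thresholds per library (0.429), thinning (0.357), ln counts (0.214), the top 5% left out (0.048), CD90.2- cells (0.190), the default tolerance (0.107) and CD4- cells only (0.452). That on CD3-CD90.2+ cells passed with thresholds per library (0.976, exact permutation adjusted p 0.0218). The trend above Ly-6G+ cells turned on T cells with thinning (0.048), ln counts (0.143) and ln percent (0.107). It turned on CD64+ cells with thresholds per library (0.048), CD90.2- cells (0.464) and a CD4- Ly-6G+ reference (0.024), and on CD11c+ cells with means (-0.048). On CD11c+ cells it ran up to rho 0.857 over the 13 alternatives, and none passed (lowest exact permutation adjusted p 0.107).

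CD64+ minus CD11c+ turned to 0.022 with thresholds per library, 0.067 thinned, 0.709 on ln counts, 0.012 with the top 5% left out and 0.120 at the default tolerance. CD11c+ minus Ly-6G+ no longer passed with thresholds per library (0.124), the default tolerance (0.105) and gates over 11 antibodies (0.219), and turned to -0.751 on ln counts. On ln counts CD3-CD90.2+ cells were below CD64+ cells (-0.138) and Ly-6G+ cells (-0.179), and CD64+ below Ly-6G+ cells (-0.042). CD3-CD90.2+ minus Ly-6G+ passed thinned (1.14), with means (0.729), the top 5% left out (0.936), the CD4- reference (1.12) and gates over 11 antibodies (1.37), and CD3-CD90.2+ minus CD11c+ thinned (0.977). CD64+ minus Ly-6G+ passed at the default tolerance (0.225) and with the CD4- reference (0.395).

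The KLRG1 difference no longer passed on ln counts (-0.157), ln percent (-0.065) or the other centre (-0.016); that for CD103 did not on ln percent (-0.049) and turned on ln counts (0.072) and the other centre (0.078). With anti-IL-12p40, the difference met the size rule on T cells thinned (-0.544) and on ln percent (-0.859), on CD11c+ cells on ln counts (-0.773) and ln percent (-0.799), on Ly-6G+ cells on ln counts (-0.694), means (-0.505) and gates over 11 antibodies (-0.518), and on CD64+ cells on ln percent (0.941), where thresholds per library gave -0.262 and ln counts -0.352.

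Between CD4-high and CD4-low cells, CD3 on CD64+ cells passed thinned (0.235), on ln percent (0.707), with 20 cells (0.297), the 90th percentile (0.324) and the CD4 threshold (0.332), and CD90.2 with 20 cells (0.851) and the 90th percentile (0.923). On CD11c+ cells CD3 passed thinned (0.301), with 20 cells (0.337), the 90th percentile (0.354) and the CD4 threshold (0.376), and CD90.2 thinned (0.961), on ln percent (0.700), with 20 cells (0.673), the 90th percentile (0.781) and the CD4 threshold (0.827).

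With each library left out in turn, the trend on T cells ran from rho -0.314 (without week 7) to 0.543 (without week 1), on CD64+ cells from -0.286 to 0.321 (without week 0), and the CD11c+ trend above Ly-6G+ cells from -0.143 to 0.607. T minus CD3-CD90.2+ ran from 1.78 to 2.37, minus CD64+ from 2.98 to 3.13, minus CD11c+ from 2.72 to 2.93 and minus Ly-6G+ from 2.98 to 3.13; without week 4, 5 or 6 the exact sign-flip adjusted p was 0.0504, from an unadjusted 0.03125, the smallest that 6 libraries can give. CD3-CD90.2+ minus Ly-6G+ ran from 0.686 to 1.10, CD64+ minus CD11c+ from -0.186 (without week 0) to 0.072, and CD11c+ minus Ly-6G+ from 0.190 to 0.288, passing only without week 1. The KLRG1 difference ran from -0.249 to -0.228 and the CD103 difference from -0.162 to -0.120. For both, the exact sign-flip adjusted p rose to 0.0658 at most, so neither passed with every library left out. The 208 leave-one-out runs are counted apart from the 373 alternatives above. Of them 164 kept direction and side of the threshold, 11 turned direction, 2 newly passed and 31 no longer passed.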

Other observations

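CD4 was also present on the 13666 cells that fell in no phenotype. Their median CD4 count per library was between 2 and 242 in the untreated libraries and 7 with anti-IL-12p40, and 9.60% to 81.2% of them were CD4+ in the untreated libraries. The values follow no single phenotype, and these cells entered no comparison.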
